A study of Mus musculus with 4 samples.

Results

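Connexins and pannexins are membrane channel proteins, and 8 of their genes (Gja1, Gja4, Gja5, Gjb2, Gjc1, Panx1, Panx2 and Panx3) were taken by name from a table of 25965 genes. All 8 were measured in all 4 libraries. The libraries held polyadenylated RNA of cultured vascular smooth muscle cells (VSMCs), the cells whose contraction sets the width of arteries. They had been freed with collagenase and elastase from the middle layer (media) of aortas of C57Bl/6 mice, which were wild-type males 8 to 14 weeks old. The cells had been grown in medium with 10% serum for 3 to 5 passages. All libraries formed 1 group without treatment, so no groups were compared, and the values describe levels in culture, differences between genes within a library, and spread between libraries. The labels do not say whether the libraries came from separate animals, so the spread between them may be technical in part.

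Connexins assemble in rings of subunits in the plasma membrane, and rings of neighbouring cells dock to form gap junctions through which ions and small metabolites pass. In arteries, gap junctions carry electrical and calcium signals between smooth muscle cells and between the endothelium and smooth muscle. Pannexins form channels that as a rule do not dock and that release ATP, which then acts on purine receptors of the same or nearby cells.

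The libraries held between 40342561 and 56793195 reads on genes. Genes with a scaled read count of 1 or more (a log2 level of 0 or more) in 4 of 4 libraries were called detected, which took 22 to 30 reads. Of 10 smooth muscle markers 9 were detected, led by Acta2, the smooth muscle actin gene (12.18 ± 1.05, mean log2 level ± SD, n = 4), Tagln (11.48 ± 0.71), Smtn (8.38 ± 0.62) and Lmod1 (8.38 ± 1.11). The exception, named after its values were seen, was Myocd, the gene of a smooth muscle coactivator. The list was uneven, as Itga8 and Des lay at percentiles 33.3 and 42.1 of the detected genes per kilobase of exon. Myh11 had between 1164 and 17719 reads in a library. Of markers of other cells, 8 of 12 endothelial, 3 of 10 leukocyte, 8 of 9 fibroblast, 4 of 10 epithelial and mesothelial and 2 of 7 glial genes were detected, against 47.4% of all genes in the table. Levels given below as log2 levels are log2 scaled reads without division by length. Differences between genes were taken after division by exon length, as log2 scaled reads per kilobase, unless stated otherwise. The highest genes of each list were picked by log2 level.

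The upstream sequences of 4 genes are shown because they represent the highest listed connexin and pannexin genes, Gja1 and Panx1, and 2 further detected connexin genes on chromosome 4, the listed Gja4 and the higher Gjb5. Each runs 5′ to 3′ over 250 bases before the transcription start annotated by RefSeq (GRCm38.p6), at chr10:56377050-56377299 on the plus strand for Gja1, and on the minus strand at chr9:15045479-15045728 for Panx1, chr4:127314040-127314289 for Gja4 and chr4:127358165-127358414 for Gjb5. Capitals mark matches to any of 6 motifs searched on both strands.
Gja1: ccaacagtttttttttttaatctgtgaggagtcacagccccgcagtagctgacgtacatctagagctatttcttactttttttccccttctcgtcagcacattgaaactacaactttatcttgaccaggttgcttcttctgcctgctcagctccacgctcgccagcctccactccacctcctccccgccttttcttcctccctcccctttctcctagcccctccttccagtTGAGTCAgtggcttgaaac
Panx1: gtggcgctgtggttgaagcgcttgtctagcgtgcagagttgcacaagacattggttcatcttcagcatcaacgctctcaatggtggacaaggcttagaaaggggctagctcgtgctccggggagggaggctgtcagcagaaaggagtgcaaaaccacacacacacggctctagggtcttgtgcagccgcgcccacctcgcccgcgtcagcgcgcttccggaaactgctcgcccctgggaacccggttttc
Gja4: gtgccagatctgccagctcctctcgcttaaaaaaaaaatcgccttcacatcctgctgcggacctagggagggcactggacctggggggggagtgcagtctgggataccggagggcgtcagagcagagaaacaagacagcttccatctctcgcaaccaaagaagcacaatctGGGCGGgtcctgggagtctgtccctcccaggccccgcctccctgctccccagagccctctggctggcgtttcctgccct
Gjb5: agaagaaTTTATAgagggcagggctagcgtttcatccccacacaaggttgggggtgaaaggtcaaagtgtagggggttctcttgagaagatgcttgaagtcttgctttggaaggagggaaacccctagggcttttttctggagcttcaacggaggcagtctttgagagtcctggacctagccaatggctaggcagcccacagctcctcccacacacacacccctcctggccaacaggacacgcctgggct

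The capitals in the Gja1 sequence are a match to TGANTCA, the site of AP-1 factors with its first base at position -19 from the start. The same motif matched in 6.75% of all 32851 upstream sequences of this length. Gja4 held 1 match to the GC box GGGCGG, present in 32.7% of all sequences, and Gjb5 held TATAAA on the opposite strand with its first base at position -243, present in 12.4%. The letters TGACGTCA (cAMP response element, 1.55% of all sequences), CACGTG (E-box, 6.02%) and the CArG box of serum response factor (1.47%) were in none of the 4 windows, and none of the 6 motifs was in the Panx1 window. No 2 of the motifs overlapped in these windows.

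Gja1, Gjc1, Gja4 and Panx1 were detected, which is 4 of 8 genes against 47.4% of all genes in the table. This share is near the background. Other thresholds moved both, with 3 of 8 against 39.9% for a log2 level of at least 2 in every library, 6 of 8 against 51.1% for at least 10 reads in every library, and 6 of 8 against 54.6% for a log2 level of at least 0 in at least 1 library. Each of the 8 had reads in at least 1 library, while 28.7% of all genes had none in any. Gja5, Gjb2, Panx2 and Panx3 did not reach the threshold in every library. In RNA of whole cultures, fewer cells expressing a gene and less of its RNA in each cell cannot be told apart.

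**Figure D1:**
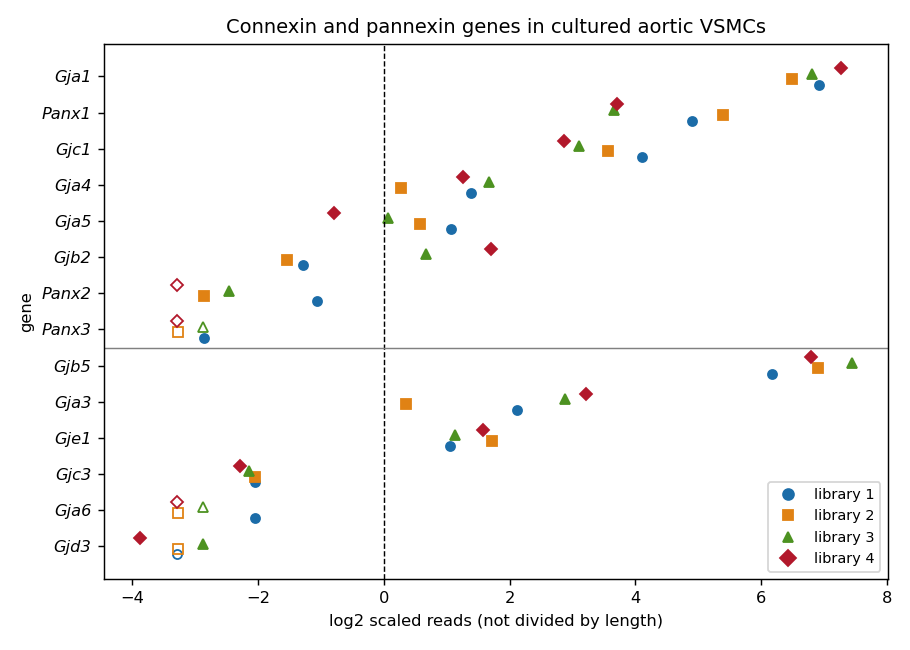
Log2 scaled reads (x axis, not divided by length) of connexin and pannexin genes with reads (y axis), with 1 symbol for each of the 4 libraries, the 8 listed genes above the grey line and 6 other connexin genes below it. Open symbols stand for libraries without reads, set at the limit of 3 reads, and the dashed line is the detection threshold of 0; Gja1 lies between 6.49 and 7.27, and Gjb5 between 6.17 and 7.44.

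Gja1, encoding Cx43, the best known connexin of cultured smooth muscle and of many other tissues (chromosome 10, 56377300 to 56390419, GRCm38), had the highest level of the 8 genes. It had 3500, 2591, 2465 and 4526 reads in libraries 1 to 4, or log2 levels of 6.91, 6.49, 6.81 and 7.27. Library 4 was highest and library 2 lowest, a 1.72-fold range, and the SD of 0.32 lay at percentile 32.8 of the SDs of all detected genes. Per kilobase of exon its level was 3.51 ± 0.32, at percentile 58.5 of the detected genes. Annotated exons of Gja1 cover 10257 bases in GENCODE M21, against 3182 for its longest protein-coding transcript, and with the latter length the level was 5.20 ± 0.32 per kilobase. Only 6438 of the 10257 bases lie inside the deposited span of the gene, and with that length the level was 4.18 ± 0.32. The summed level of the smooth muscle markers was also highest in library 4 (14.01) and lowest in library 2 (11.86), with 12.99 and 13.51 in libraries 1 and 3, and its part in the Gja1 values was not tested.

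Gjc1, encoding Cx45, a connexin of smooth muscle and of the conduction system of the heart (chromosome 11, 102799579 to 102819700), had 501, 342, 189 and 213 reads. Its log2 levels were 4.11, 3.56, 3.10 and 2.86, highest in library 1 and lowest in library 4. The mean was 3.41 ± 0.55, and per kilobase 1.09 ± 0.55, at percentile 21.7 of the detected genes. Gja1 exceeded Gjc1 within each library, by 1.77, 1.89, 2.67 and 3.37 log2 units per kilobase (mean 2.42 ± 0.75, a 5.37-fold difference). The levels of the pair did not overlap. With the lengths of the longest coding transcripts the mean difference was 3.00 ± 0.75.

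Gja4 and Gja5 encode Cx37 and Cx40, which in arteries are best known from the endothelium. Gja4 (chromosome 4, 127311421 to 127314039) had 76, 35, 70 and 70 reads and log2 levels of 1.39, 0.28, 1.67 and 1.25, so that it was detected but near the threshold, with library 2 lowest. Gja5 (chromosome 3, 97032416 to 97053634) had 61, 43, 23 and 17 reads and log2 levels of 1.07, 0.57, 0.06 and -0.79, and fell below the threshold in library 4. Per kilobase, Gja1 exceeded Gja4 by 3.12 ± 0.48 and Gja5 by 5.80 ± 1.03, and Gja4 exceeded Gja5 by 2.69 ± 1.09, each in 4 of 4 libraries. With coding transcript lengths these differences were 4.80, 6.84 and 2.04, and without division by length Gja4 minus Gja5 was 0.92 and lost its single direction. Gjc1 and Gja4 did not differ in 1 direction per kilobase of exon, with differences of 1.15, 1.72, -0.14 and 0.04 (mean 0.69 ± 0.89). With coding transcript lengths (mean 1.80) and without division by length (mean 2.26), Gjc1 lay above Gja4 in 4 of 4 libraries. The lack of 1 direction thus rests on the length chosen.

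Endothelial markers were present beside these genes. With the deposited scaling, the summed log2 level of the 12 endothelial markers was 8.13, 7.58, 7.41 and 7.04 in libraries 1 to 4. That was the order of Gja5 and Gjc1. The median of all detected genes was also higher in libraries 1 and 2 (5.49 and 5.22) than in libraries 3 and 4 (4.78 and 4.95). Scaling by median-ratio size factors moves the libraries by -0.32, -0.10, 0.30 and 0.12. The endothelial sum of library 3 then passes that of library 2, while Gja5 and Gjc1 keep their order. The orders of markers given here are those of the deposited scaling. Eng was the highest gene of the list in every library (7.61, 7.01, 6.30 and 6.64), but it was lowest in library 3. Pecam1, Vwf, Emcn, Egfl7 and Nos3 were highest in library 3, as was the median of the list per kilobase (0.65, -0.12, 0.80 and -1.21). The other genes of the list were highest in library 1. Of these, Cdh5, Tek (115, 62, 29 and 23 reads) and Kdr (30, 18, 5 and 1 reads) fell in the order of Gja5 and Gjc1, and the rest did not. None of the 12 was without reads in all libraries. Eng averaged 6.89 ± 0.56, Egfl7 4.05 ± 0.63, Tie1 3.42 ± 0.80 and Pecam1 2.95 ± 1.04, while Cdh5, the gene of the endothelial cadherin, had 206, 78, 45 and 25 reads. The part of endothelial cells in the values of Gja4, Gja5 and Gjc1 was not tested.

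Gjb2, encoding a connexin of the inner ear and of epithelia (chromosome 14, 57098600 to 57104702), had 12, 10, 35 and 96 reads. Its log2 levels of -1.28, -1.53, 0.67 and 1.71 passed the threshold in libraries 3 and 4 and lay below it in libraries 1 and 2. This 9.44-fold range between the highest and lowest library was the widest of the listed genes with reads in every library. Gja1 exceeded Gjb2 by 4.88 ± 1.32 per kilobase, and by 6.57 with coding transcript lengths.

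Panx1, encoding the widely expressed ATP-release channel (chromosome 9, 15005161 to 15045478), was the only pannexin gene detected. It had 871, 1209, 277 and 382 reads, or log2 levels of 4.91, 5.39, 3.65 and 3.70. Libraries 1 and 2 were high and libraries 3 and 4 low, a 3.32-fold range, and the SD of 0.87 lay at percentile 90.3 of those of all detected genes. Its level per kilobase was 1.82 ± 0.87, at percentile 31.8 of the detected genes.

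The medians of fibroblast markers and the sums of leukocyte markers were also higher in the libraries with more Panx1. The summed epithelial and glial markers given with Gjb5 below were lower there. However, the median of the epithelial and mesothelial list per kilobase was higher there (-2.32, -2.05, -3.29 and -3.67), so its direction rests on the measure. The median level per kilobase of the 9 fibroblast markers was 3.98, 4.10, 1.59 and 1.51 in libraries 1 to 4. The fibroblast matrix gene Dpt had 4133, 3750, 110 and 111 reads and the receptor gene Pdgfra 4201, 3149, 666 and 838, whereas Cd34 was higher in libraries 3 and 4 (2520, 3611, 7677 and 9304 reads), and the summed log2 level of the list ranged only from 11.73 to 12.07. The summed log2 level of the 10 leukocyte markers was 6.07, 5.75, 4.23 and 4.49. The leukocyte gene Ptprc had 13, 27, 0 and 12 reads, and Cd14 did not follow Panx1 (2.69, 3.20, 2.39 and 3.22). The part of these cells in the Panx1 values was not tested.

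Panx2, best known from the nervous system (chromosome 15, 89059734 to 89073567), had 14, 4, 4 and 0 reads, and Panx3, known from skin, cartilage and bone (chromosome 9, 37659902 to 37669222), had 4 reads in library 1 and none in the others. A count of 0 allows up to 3 reads in a library. The span of Panx2 overlaps that of the gene 1810021B22Rik by 2372 bases, and reads there may be divided between them. Per kilobase, Panx1 exceeded Panx2 by 5.21, 7.50 and 5.37 log2 units in libraries 1 to 3 and by at least 6.25 in library 4, where Panx2 was set at 3 reads. Panx1 exceeded Panx3 by 6.95 in library 1 and by at least 7.84, 5.72 and 6.18 in libraries 2 to 4.

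Between the families, Gja1 exceeded Panx1 by 1.24, 0.33, 2.39 and 2.80 log2 units per kilobase (mean 1.69 ± 1.12, or 3.31 with coding transcript lengths), least in library 2, where Panx1 was highest and Gja1 lowest. Gjc1 lay below Panx1 in 4 of 4 libraries, by a mean of -0.73 ± 0.56, but above it on average (0.31 ± 0.56) when the longest coding transcripts were used as lengths. The order of Gjc1 and Panx1 thus rests on the choice of length.

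**Figure D2:**
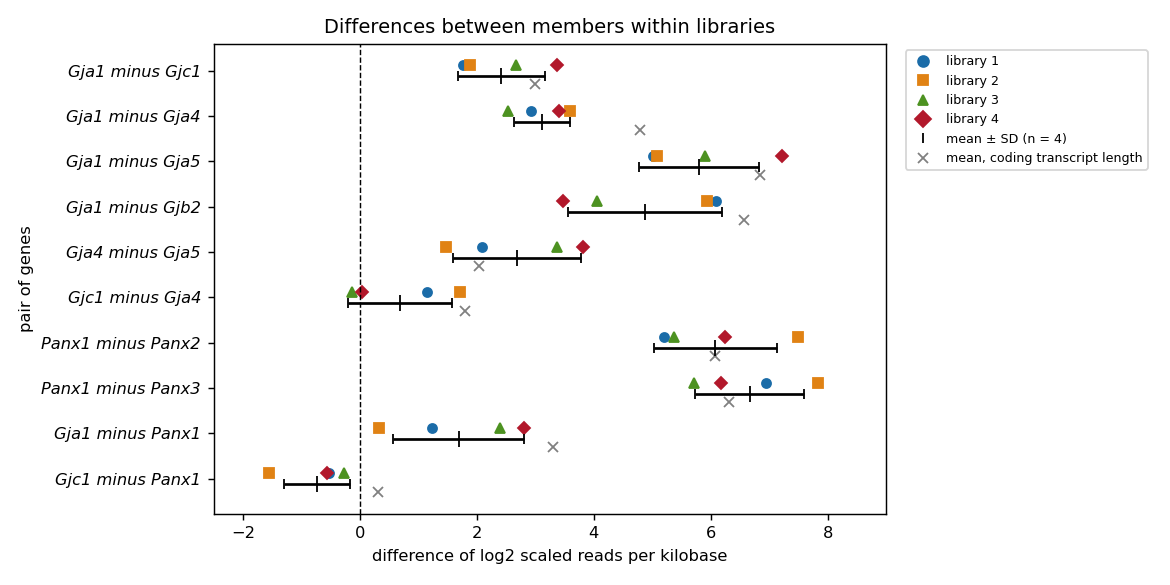
Difference of log2 scaled reads per kilobase (x axis) for 10 pairs of the listed genes (y axis), with 1 coloured symbol per library, a black bar for the mean ± SD (n = 4) and a grey cross for the mean with coding transcript lengths. Libraries without reads of Panx2 or Panx3 are set at 3 reads for that gene, so their differences are lower bounds; the symbols of Gjc1 minus Gja4 lie on both sides of 0, and those of the other 9 pairs on 1 side.

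A single direction in 4 of 4 libraries was found for 9 of the 10 pairs. By exact permutation of signs (two-sided), 2 of the 16 arrangements were as extreme as the data for each of these, with an adjusted p = 0.139 over the 10 pairs (Benjamini-Hochberg). For Gjc1 minus Gja4 the exact p was 0.375, and its adjusted p was 0.375. With 4 libraries the test cannot give less than 2 of 16, so no pair could pass a threshold of 0.05.

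The other members of the connexin family were examined in the same way, and 5 of 15 were detected, against the 47.4% of all genes. Gjb5, Gja3 and Gje1 were among them. Gjb6, Gjb1, Gjd2, Gjd4 and Gja10 had no reads in any library, which allows up to 3 reads in each, and is 5 of 15 against the 28.7% of all genes. Gja6 had 7 reads in library 1 alone, Gjd3 3 and 2 reads in libraries 3 and 4, and Gjc3, known from glia, between 5 and 7 reads in each library.

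Gjb5, a connexin gene best known from the epidermis (chromosome 4, 127354809 to 127358181), had a high level in every library. It had 2095, 3439, 3823 and 3252 reads, or log2 levels of 6.17, 6.89, 7.44 and 6.79, lowest in library 1 and highest in library 3. Per kilobase it averaged 6.04 ± 0.52, at percentile 88.0 of the detected genes. Its difference from Gja1 was chosen after its values were seen and carries no test. Gjb5 exceeded Gja1 by 2.53 ± 0.67 per kilobase of exon, and by 0.15, 1.30, 1.52 and 0.41 in libraries 1 to 4 with coding transcript lengths. Without division by length the mean log2 levels were 6.82 for Gjb5 and 6.87 for Gja1, and Gja1 was higher in libraries 1 and 4. The difference thus rests on the length chosen. No 50-base window of the Gja4 or Gjb5 transcripts in GENCODE M21 occurs in a transcript of another gene.

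Epithelial markers beside Gjb5 were uneven. Of 10 epithelial and mesothelial markers, 4 were detected, namely the keratin genes Krt19 (5.07 ± 0.71) and Krt18 (3.83 ± 1.65) and the mesothelial genes Upk3b (4.96 ± 0.80) and Msln (0.86 ± 0.83). The summed log2 level of the list was 6.26, 6.16, 7.13 and 6.64 in libraries 1 to 4, highest in library 3, as for Gjb5, where Krt18 peaked (2.10, 2.86, 5.74 and 4.60). Krt19 was highest in library 4, Upk3b in library 1 and Msln in library 2, and the median of the list per kilobase was lower in libraries 3 and 4 (-2.32, -2.05, -3.29 and -3.67). The first 2 genes of the list were low, with 1, 9, 0 and 0 reads of Epcam and 10, 24, 15 and 16 of Cdh1. Among 7 glial markers, S100b was also highest in library 3 (2809, 2954, 9424 and 7297 reads), as was the summed log2 level of that list (7.13, 7.12, 8.88 and 8.28). The part of epithelial, mesothelial or glial cells in the values of Gjb5 was not tested.

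Gja3, a connexin gene best known from the lens (chromosome 14, 57035608 to 57058030), had 126, 37, 161 and 273 reads and log2 levels of 2.12, 0.36, 2.87 and 3.22. Like Gjb2, which lies 40569 bases from it, it was highest in library 4 and lowest in library 2. Gje1 (chromosome 10, 14715623 to 14718214) had 60, 95, 48 and 88 reads, and 4.40% of its 50-base windows occur in transcripts of other genes, so its reads are uncertain. Among the 8 listed genes such sharing reached 13.2% for Gja5, with Zfp697, and at most 0.0957% for the others.

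Among the 20 measured connexin genes, Gja1 took 9.96%, 4.97%, 2.98% and 5.80% of the summed reads per base of exon in libraries 1 to 4 (mean 5.93% ± 2.94). Gjb5 took 31.8% ± 6.76. The other listed connexins had small shares, with Gjc1 at 1.32% ± 1.14, Gja4 at 0.697% ± 0.417, Gjb2 at 0.233% ± 0.199 and Gja5 between 0.039% and 0.310%. Without library 1 the mean share of Gjc1 was 0.791% and that of Gja5 0.079%, and without library 4 that of Gjb2 was 0.136%. With coding transcript lengths the mean share of Gja1 was 16.2% ± 6.85. It was highest in library 1 and lowest in library 3 with both lengths, although the level of Gja1 itself was highest in library 4.

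The coding sequence of each connexin gene sat in few exons. In the longest coding transcript of GENCODE M21, Gja1, Gja4, Gjb2, Gjc1 and Gjb5 each had their coding sequence in 1 exon, and Gja5 in 2. Panx1, Panx2 and Panx3 had 5, 3 and 4 coding exons. The coding sequences of the listed connexins ran from 678 bases in Gjb2 to 1188 in Gjc1, and those of the pannexins from 1176 in Panx3 to 2031 in Panx2.

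Gja4, Gjc1 and Panx1 had an SD above 0.5 log2 units between libraries and Gja1 did not, 3 of 4 detected listed genes against 40.5% of all detected genes. The libraries differed in their overall level, and scaling by median-ratio size factors in place of the deposited scaling moved the median of detected genes by -0.32, -0.10, 0.30 and 0.12 log2 units in libraries 1 to 4. With that scaling the SD of Gjc1 fell from 0.55 to 0.33, that of Panx1 from 0.87 to 0.67, and that of Gja1 rose from 0.32 to 0.46. Gja1 remained highest in library 4 and lowest in library 2, and Gjc1 highest in library 1 and lowest in library 4. Panx1 remained highest in library 2, but its lowest library changed from 3 to 4.

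**Figure D3:**
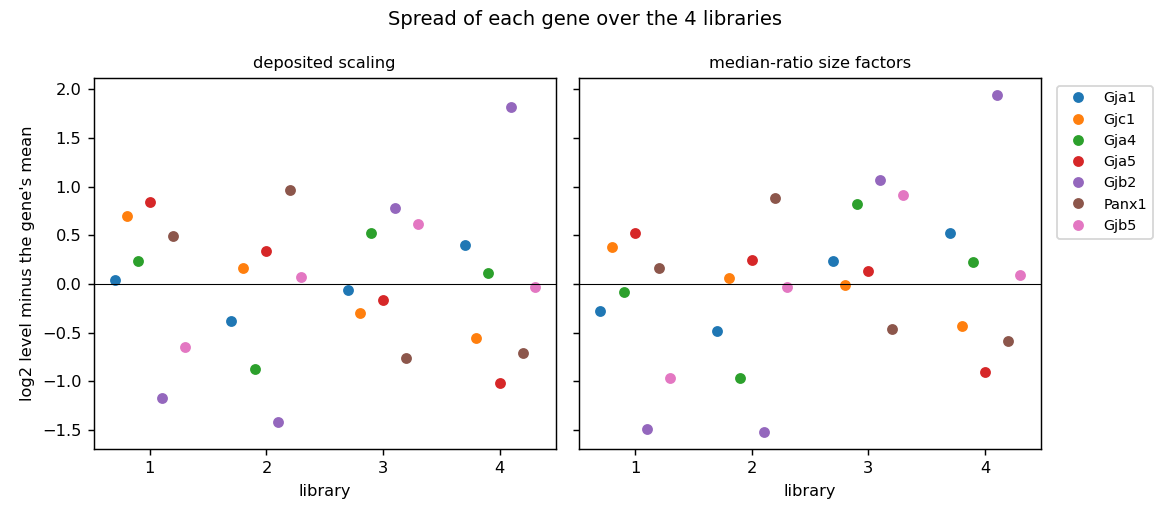
Log2 level minus the gene's mean (y axis) in each of the 4 libraries (x axis) for 7 connexin and pannexin genes, with the deposited scaling on the left and median-ratio size factors on the right. On the left Gjb2 shows the widest spread, from -1.42 to 1.82, and Gja1 the narrowest, from -0.38 to 0.40. On the right Gjc1 shows the narrowest, from -0.43 to 0.38.

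Genes whose levels followed those of the detected genes across libraries were named by the smallest root mean square difference of centred log2 levels over the 4 libraries. For Gja1 these were Rassf8 (0.022), Prdm11 (0.027) and Cblb (0.028) among 10682 detected genes, and 42 genes lay within 0.1. For Gjc1 they were Med14 (0.018), Rpe (0.030) and Ptpdc1 (0.039), with 58 genes within 0.1. For Panx1 they included Ccdc37 (0.068) and Nfkbiz (0.076), with 7 genes within 0.1. With 4 libraries the likeness describes these samples and is no correlation.

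Nearly all genes of proteins that bind, phosphorylate or turn over connexins were detected, 27 of 28 against 47.4% of all genes, and 11 of the 27 had an SD above 0.5, beside 40.5% of all detected genes. The exception, named after its values were seen, was Ctnna3. The median level of the list was 4.82 ± 0.36 per kilobase, beside 2.97 ± 0.29 for all detected genes. Tjp1, encoding the scaffold protein that binds the tail of Cx43, had a log2 level of 5.28 ± 0.66. The highest genes by log2 level were Hspa9, a mitochondrial chaperone gene (10.42 ± 0.26), and the tubulin gene Tuba1a (9.83 ± 0.41). They were followed by Nedd4, a ubiquitin ligase gene linked to Cx43 turnover (9.62 ± 0.59), and the kinase gene Akt1 (9.62 ± 0.39). Per kilobase these genes averaged 8.32, 8.98, 6.17 and 7.59, and Nedd4 was then not among the 4 highest. Among tight junction genes 8 of 15 were detected, with Marveld1 at 7.81 ± 0.34 and the junctional adhesion molecule genes Jam3, Jam2 and F11r at 6.69 ± 0.31, 6.56 ± 0.81 and 5.79 ± 0.28. The claudin gene Cldn3 averaged 2.68 ± 0.77, and Cldn1 had 10, 0, 0 and 6 reads.

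On the side of ATP, 15 of 21 genes of other release channels, nucleoside transport and nucleotide turnover were detected, against 47.4% of all genes. Lrrc8a, the obligatory subunit of volume-regulated anion channels, averaged 8.04 ± 0.30 in log2 level and 5.93 ± 0.30 per kilobase, above Panx1 at 1.82 ± 0.87 per kilobase. Slc29a1, an equilibrative nucleoside transporter gene that takes up adenosine, averaged 8.21 ± 0.24 in log2 level, Vdac1, the gene of a mitochondrial outer membrane channel, 7.20 ± 0.72, and Lrrc8d, another anion channel subunit gene, 5.94 ± 0.56. Of the calcium homeostasis modulator channel genes listed first, Calhm2 averaged 4.19 ± 0.58 and Calhm1 had no reads in any library.

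Of 19 purine receptor genes, 8 were detected, a share of 42.1% beside the 47.4% of all genes. The highest were the ATP-gated channel genes P2rx4 (6.17 ± 0.25), P2rx5 (5.95 ± 0.31) and P2rx7 (4.53 ± 0.27) and the UDP receptor gene P2ry6 (4.69 ± 0.41). Per kilobase they were P2rx5 at 4.69 ± 0.31, P2rx4 at 3.35 ± 0.25, P2ry6 at 3.16 ± 0.41 and P2rx7 at 1.95 ± 0.27. P2rx1, the main ATP-gated channel gene of contractile arterial smooth muscle, had 0, 0, 0 and 11 reads, and P2rx2 had none.

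**Figure D4:**
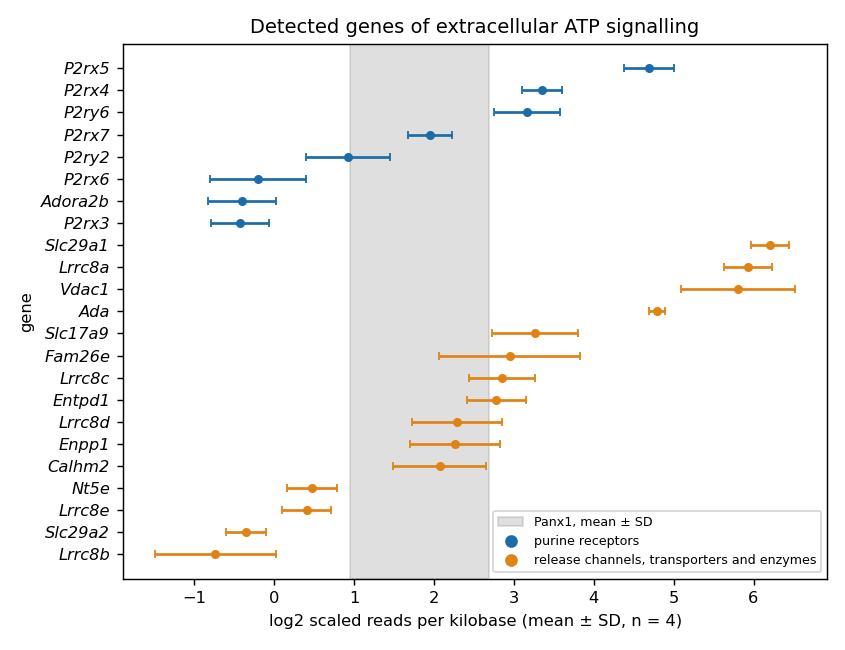
Log2 scaled reads per kilobase (x axis, mean ± SD, n = 4) of the 8 detected purine receptor genes and the 15 detected genes of release channels, transporters and enzymes (y axis), with the grey band at the mean ± SD of Panx1. The band lies at 1.82 ± 0.87, with P2rx7 (1.95) and Calhm2 (2.07) among the genes within it and P2rx5, P2rx4, Lrrc8a and Slc29a1 among those above it.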

How the data were processed

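Libraries were made from total RNA (integrity numbers 7.8 to 9) with a stranded mRNA kit (per the labels' protocols). The submitters' processing notes name TopHat, cutadapt and Trim Galore and the build GRCm38, without versions. How reads were counted, over which annotation and with which strand setting, is not stated there. The authors deposited log2 values for 25965 genes, which from the values are log2 of whole reads times a constant of each library, not divided by length, with genes without reads at 0.9 read. Dividing by the value of 1 read (0.0344, 0.0346, 0.0455 and 0.0340) gave values within 0.05 read of a whole number for 99.78%, 99.80%, 99.81% and 99.69% of the values above the floor. Whether both ends of a fragment were counted is unknown, and limits from these reads cover counting error only. Library pairs differed far beyond sampling noise (chi-square per gene from 102.4 to 591.0).

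Lengths were the union of exons in GENCODE M21, found for 87.0% of genes and all 162 listed genes (2 under older symbols), with coordinates from the deposited table. For differences between genes, a library without reads was set at 3 reads. The listed genes, 12 gene lists and 10 pairs were chosen with earlier results of these data known. Named genes were drawn from the 8 listed genes, other connexins with reads, and the 4 highest detected and first 2 genes of each list. Added to these were the 3 genes most like Gja1, Gjc1 and Panx1 (numbered models and RNA, mitochondrial or ribosomal protein genes left out). Myocd, Itga8, Des, Myh11, Ctnna3, Vwf, Emcn, Nos3, Kdr, Tek and the connexins without reads were named after their values were seen. Some genes are not reported here. Alternatives were other thresholds, lengths and scalings and leaving out each library. Recovery of reads and the SD were tested on simulated data. Python 3.11.15, numpy 2.4.6, pandas 2.3.3 and matplotlib 3.10.9 were used.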

Additional observations from a re-analysis of the deposited data

Results flagged for a closer look

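The share of Gja4 among connexin reads per base of exon was 1.32% in library 1, against 0.409%, 0.515% and 0.547% in libraries 2 to 4. The gap of library 1 to the nearest other library was 0.848 of the whole range, above the 95% critical value of Dixon's test for 4 values. In all, 28 sets of 4 values were checked this way, of which chance flags about 1 in 20. The log2 level of Gja4 itself was not set apart in library 1 (1.39, with 0.28 to 1.67 in the others).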

How the results depend on the processing

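The mean of each of the 10 differences between listed genes kept its sign when each library was left out and without division by length. It also did so with the deposited floor for libraries without reads. Exons inside the deposited span, an alternative added after the data were seen, also left every sign unchanged. However, Gja4 minus Gja5 without division by length (0.92, exact sign permutation p = 0.25) no longer had 1 direction in all libraries. The same held for Gja1 minus Panx1 with exons inside the deposited span (1.35, exact p = 0.25). Gjc1 minus Gja4 gained 1 direction with coding transcript lengths (1.80) and without division by length (2.26). With the longest coding transcripts Gjc1 minus Panx1 turned from -0.73 to 0.31. The mean share of Gja1 among connexins moved from 5.93% to 16.2% with coding transcripts, 26.8% without division by length and 9.00% with exons inside the deposited span, so it rests on the length chosen. Detected listed genes with an SD above 0.5 numbered 3, against 2 with median-ratio size factors and 0 with an SD above 1 (5.80% of all detected genes). With all 8 genes counted the number was 7, which includes Panx2 and Panx3 with few or no reads. The shares of all genes beside the counts of 2 and 7 were not computed. Detected listed genes numbered between 3 and 6, and detected genes of the other lists, 96 of 154, between 78 and 115 under the alternatives run. For single lists, the threshold of 2 left 3 other connexins, 5 purine receptor, 5 tight junction and 4 endothelial genes, and a level of 0 in any library gave 5 leukocyte and 4 glial genes. No paired analysis was possible because all libraries belong to 1 group. Depth limits Panx2, Panx3 and other genes with few reads, where differences of a few reads cannot be told from counting error.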
